A study of Homo sapiens with 6 samples.

Results

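The RNAs described here are LINC-named long intergenic noncoding RNAs of H7 cells, a long-used line of human embryonic stem cells. They were chosen by measured level, as rows of the gene count table that are typed lncRNA, have a symbol starting with LINC and no ending for an antisense, divergent or overlapping transcript, and reach a mean of at least 0.5 CPM (a library's counts scaled to 1000000) over the 6 libraries. Of 2117 LINC-named lncRNA rows among 60664 genes, 970 had a count and 220 reached that level. The level chose the members, so it is given only as a description: the members nearest the threshold were LINC01106 (0.5002 CPM) and LINC01936 (0.5021 CPM), and just below it lay LINC-PINT (0.4946 CPM) and LINC02041 (0.4760 CPM). Poly-A RNA was sequenced from 3 control libraries, which the series title calls WT, and from 3 libraries made after SAMD4A knockdown, all of H7 cells grown on Matrigel in mTeSR Plus. SAMD4A encodes a Smaug-type protein that binds RNA, and the series asks what it does in self-renewal and lineage choice. The knockdown construct and the number of clones were not given in the sources used here. No label states that the replicates came from different cultures, so p-values reflect the scatter of these samples alone, and that scatter may be technical.

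Long intergenic noncoding RNAs are transcribed by RNA polymerase II from their own promoters, are mostly spliced and polyadenylated, and as a class are lower and more cell type-restricted than messages. LINC-ROR is among the best known of those in human pluripotent cells. It was named as a regulator of reprogramming because raising it favours the making of induced pluripotent cells, and it has been described as a sponge for miR-145, a microRNA that represses pluripotency factors.

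Library totals ran from 19270688 to 21355171 counts, and SAMD4A was lower in each knockdown library (27.4, 28.5 and 28.5 CPM) than in each control library (52.2, 55.9 and 49.8 CPM). All levels below are CPM scaled with TMM factors. Mitochondrial genes took 3.31% to 3.46% of counts in control and 4.87% to 5.12% in knockdown. Across all genes, 51.7% of the 17258 tested passed an adjusted p of 0.05 (edgeR quasi-likelihood test, Benjamini-Hochberg adjustment over all genes tested), 26.1% higher and 25.6% lower in knockdown. Of the 6 pluripotency markers, DNMT3B rose by 1.07 on the log2 scale, TDGF1 by 0.24, POU5F1 by 0.19 and L1TD1 by 0.13. NANOG fell (-0.25) and SOX2 did not pass. The TMM factors were 1.05 to 1.06 in control and 0.94 to 0.95 in knockdown, so the sizes of the small changes depend on the scaling. Knockdown replicate 1 stood apart in neural genes: the summed level of 7 neural markers was 64.6 to 74.9 CPM in control libraries, against 98.8, 4.17 and 2.97 CPM in knockdown replicates 1 to 3. The summed level of 7 mesendoderm and endoderm markers was 2.79 to 3.32 CPM in control and 7.91, 3.61 and 2.05 CPM in knockdown replicates 1 to 3. Of 5 fibroblast markers, which summed to 334 to 372 CPM in control and 285 to 314 CPM in knockdown, DCN was at 0 in all libraries and COL1A1 and COL1A2 held nearly all of the sum. The 5 trophoblast and amnion markers summed to 9.08 to 13.1 CPM in control and 6.62 to 8.47 CPM in knockdown, with KRT7 holding most of it. The part of these cell types in the results below was not tested, and in bulk RNA fewer cells of a type and less RNA per cell cannot be told apart.

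As a class the LINC-named RNAs were more often lower than higher in the knockdown. Together they took 0.144% to 0.149% of all counts in the control libraries and 0.115% to 0.119% in the knockdown libraries. The low-count filter kept 212 of the 220. Of these, 71 fell (33.5%, against 25.6% of all genes tested) and 17 rose (8.02%, against 26.1%), and 124 did not pass. Among the other lncRNAs tested at 0.5 CPM or more, 20.7% were lower and 12.6% higher. Of the calls, 39 downward reached 2 fold (18.4%, against 6.10% of all genes tested and 11.4% of other lncRNAs) as did 11 upward (5.19%, against 2.68% and 4.78%). The median log2 fold change of the tested members was -0.31, while that of all genes was -0.0089. With scaling by total counts only these medians were -0.47 and -0.17. The groups did not overlap for 84 tested members that were lower (39.6%, against 29.4% of all genes tested) and 23 that were higher (10.8%, against 28.9%), where the other lncRNAs had 26.8% and 15.5%. Through one group alone 26 members reached the level threshold from control, with a knockdown mean under 0.5 CPM, and 9 from knockdown, and these could hardly enter without differing. Without them 59 of the 71 lower and 14 of the 17 higher members were left, beside 112 that were not called. The 2 fold and non-overlap counts, the medians and the percentages above still include them. Those values were not computed without them, so they are a description only. Members that entered through 1 group alone and are named below are given by level or log2 fold change, with no test.

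Depth sets what could be called, since most members are rare: 59 of the 220 had a mean under 1 CPM, 138 had 1 to 10 CPM and 23 had 10 CPM or more. Under 1 CPM, 19.6% of the 51 tested members were lower and 7.84% higher, while 13.4% and 7.26% of all genes at that level were. Members that entered through 1 group alone are counted here. LINC00402 and LINC00900 are among the lower ones, and LINC02334, LINC02884 and LINC01238 among the higher ones. The shares under 1 CPM are therefore a description only. At 1 to 10 CPM, 36.2% of members were lower and 6.52% higher, beside 25.5% and 12.3% of all genes. At 10 CPM or more, 47.8% of 23 members were lower and 17.4% higher, beside 27.7% and 36.2% of all genes.

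**Figure D1:**
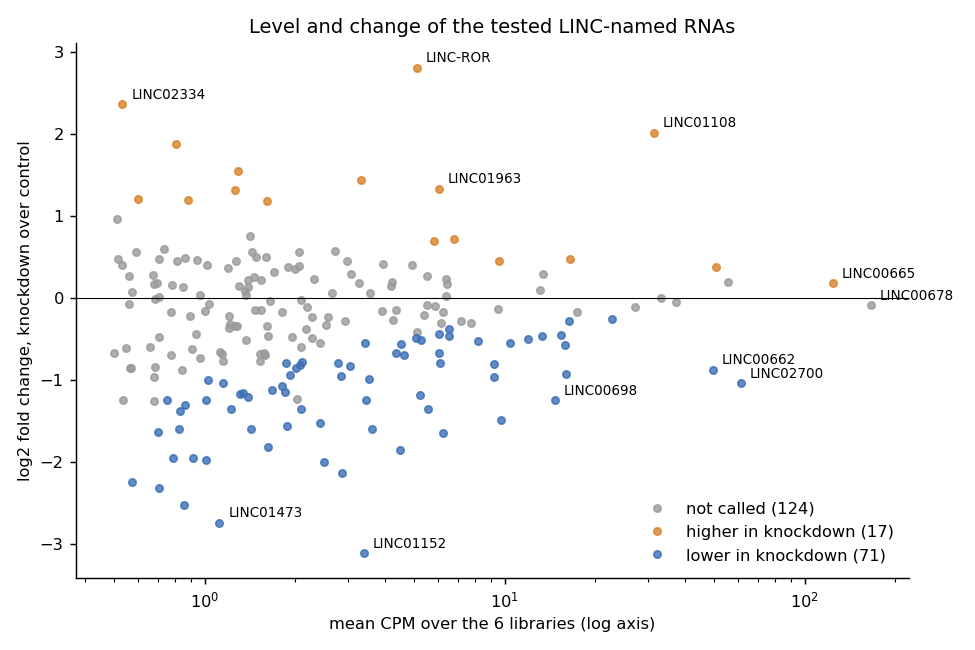
Each point is 1 of the 212 tested LINC-named RNAs, placed by its mean CPM over the 6 libraries (log axis) and its log2 fold change of knockdown over control, coloured by the edgeR call. The 71 lower members spread over all levels, and LINC-ROR and LINC01108 stand out among the 17 higher ones.

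The stem cell-enriched RNAs did not move as a group. LINC-ROR (ENSG00000258609, chromosome 18, 57054558 to 57072119, GRCh38, minus strand) was at 1.47, 1.33 and 1.18 CPM in the control replicates and at 8.60, 9.66 and 9.65 CPM in knockdown replicates 1 to 3. The knockdown libraries lay close together and far above the control ones, and knockdown replicate 1 was like the others here. Its log2 fold change was 2.80 ± 0.18 (SE), the largest among the members, and since LINC-ROR was chosen with that difference known it carries no test here. Its nearest coding gene, WDR7, lies 24747 bases away and did not pass (-0.12, edgeR adjusted p = 0.28). Among other genes near it, named after their values were seen, ST8SIA3 was at -0.0037 (edgeR adjusted p = 0.98) and ONECUT2, a transcription factor gene, rose by 0.53 from 4.58 to 6.60 CPM (edgeR adjusted p = 0.0097). RefSeq promoter sequence was not at hand for LINC-ROR. The mature sequence of miR-145-5p from RefSeq (GRCh38.p14, chromosome 5), with its seed in capitals, is given since LINC-ROR is known for binding it.
hsa-miR-145-5p: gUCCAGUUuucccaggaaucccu
The 7-base match to that seed, AACTGGA, was not in the 2604-base LINC-ROR transcript of GENCODE 29, and 37 of 219 members (16.9%) and 14.5% of other lncRNAs had it. These shares take no account of length, and member transcripts were longer (median 1763 against 1207 bases). Absence of these letters from that transcript says nothing on binding through other pairing.

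LINC01108, listed in RefSeq as LncRNA-ES1 and described in embryonic stem cells, was the abundant RNA with the clearest rise. It lies on chromosome 6 (14280127 to 14285454, GRCh38, minus strand) and overlaps no other gene of the table. Its levels were 14.1, 11.5 and 13.1 CPM in control and 55.2, 49.8 and 51.2 CPM in knockdown, with no overlap. LINC01108 rose by 2.01 ± 0.090 (log2 scale, SE, edgeR adjusted p = 1.4e-10). Its nearest coding gene, CD83, an immune cell surface protein gene 143209 bases away, also rose, by 0.50 from 9.05 to 12.8 CPM (edgeR adjusted p = 0.0014). Its promoter as RefSeq gives it, chr6:14285405-14285704 on the minus strand of GRCh38.p14 (250 bases before to 50 after the start), is shown because this RNA changed most among the abundant members. Capitals mark a CTTTGT word, the core of SOX factor sites, and a TATAAA word.
LINC01108 promoter: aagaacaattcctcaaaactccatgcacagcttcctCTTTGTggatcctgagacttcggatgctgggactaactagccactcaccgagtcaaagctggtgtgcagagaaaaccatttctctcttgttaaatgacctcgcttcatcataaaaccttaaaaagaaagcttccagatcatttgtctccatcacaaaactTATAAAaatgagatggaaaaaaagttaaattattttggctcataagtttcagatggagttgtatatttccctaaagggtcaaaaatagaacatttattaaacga
Of all RefSeq promoters of this length 16.1% held CTTTGT and 11.5% TATAAA on either strand. Of the 137 member promoters found there, 18.2% and 10.9% did, and the octamer core ATGCAAA was in 3.65% of them and in 4.46% of all. These are matches of letters only.

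SAMD4A-family proteins are known to bind short hairpins with a CNGG loop, so member transcripts of GENCODE 29 were searched for 5 Watson-Crick pairs around a loop of 4 to 7 bases that starts with CNGG, on the transcript strand only. At least 1 was found in 40 of 219 members (18.3%) and in 17.2% of 1688 other lncRNAs. Member transcripts were longer (median 1763 against 1207 bases), and per kb they held 0.105 hairpins against 0.116. LINC01108 held 2, at bases 1092 and 2318 of its 3152-base transcript, printed with the loop in capitals since no stem cell-enriched RNA other than it had any.
LINC01108 hairpin 1: aagctCTGGGAagctt
LINC01108 hairpin 2: tcctgCAGGTGGcagga
The share was 17.6% of 17 members that rose, 18.3% of 71 that fell and 17.9% of 123 that were not called, so it hardly differed between them. A match is not a binding site.

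Of the other 5 stem cell-enriched members, LINC01356 rose, LINC00698 fell and LINC00678, LINC00458 and LINC00545 did not pass. LINC00678, the highest member per base (211 CPM per kb of exon), was at 173, 175 and 164 CPM in control and 158, 157 and 167 CPM in knockdown, and the groups overlapped. It did not pass (-0.089 ± 0.049, edgeR adjusted p = 0.14). It was called lower with upper-quartile factors (-0.13, edgeR adjusted p = 0.036) and when only totals set the scale (-0.25, edgeR adjusted p = 6.1e-04). BDNF, a neurotrophin gene 20266 bases from it, fell by 0.55 (edgeR adjusted p = 0.0067). LINC00458, listed in RefSeq as LncRNA-ES3, was at 58.7, 48.8 and 47.9 CPM in control and 64.5, 50.7 and 63.2 CPM in knockdown. Its groups overlapped and it did not pass (0.20 ± 0.095, edgeR adjusted p = 0.093). It was called higher without control replicate 1 (0.30, edgeR adjusted p = 0.027), without knockdown replicate 2 (0.31, edgeR adjusted p = 0.0096) or with no low-count filter (0.21, edgeR adjusted p = 0.018). LINC01356 was at 50.8, 44.3 and 38.1 CPM in control and 64.5, 54.2 and 54.1 CPM in knockdown. It rose by 0.38 ± 0.10 (edgeR adjusted p = 0.0041), a call lost when only totals set the scale (0.22, edgeR adjusted p = 0.070). LINC00698 on chromosome 3 was at 19.7, 21.7 and 19.2 CPM in control and 9.30, 8.38 and 7.82 CPM in knockdown. It fell by 1.25 ± 0.11 (edgeR adjusted p = 2.2e-07), while CADPS, a gene of vesicle release 75014 bases away, rose by 0.50 (edgeR adjusted p = 0.0048). LINC00545, which shares exon bases with TEX26-AS1, was at 3.17 to 4.75 CPM in control and 3.98 to 5.23 CPM in knockdown and did not pass (0.20 ± 0.20, edgeR adjusted p = 0.44).

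LINC-ROR aside, which carries no test here, 2 of the other 6 stem cell-enriched members were called higher (LINC01108 and LINC01356), 1 lower and 3 not called, beside 26.1% higher and 25.6% lower among all genes. Stem cell RNAs outside the LINC names also went both ways, 4 typed lncRNA in the table and TUNAR, which it types as protein-coding. ESRG rose by 0.49 ± 0.07 from 1486 to 2085 CPM (edgeR adjusted p = 2.1e-05). MIR302CHG, the host of the miR-302 cluster of pluripotent cells, rose by 0.98 ± 0.05 (edgeR adjusted p = 1.3e-09) and LNCPRESS2 by 0.28 ± 0.11 (edgeR adjusted p = 0.047). The LNCPRESS2 groups overlapped: knockdown replicate 1, at 32.9 CPM, lay below every control library (33.1 to 36.6 CPM), and replicates 2 and 3 lay above them at 46.1 and 48.2 CPM. LNCPRESS1, a p53-repressed RNA of embryonic stem cells, fell by 1.33 ± 0.07 (edgeR adjusted p = 3.9e-10), and TUNAR fell by 0.20 ± 0.06 (edgeR adjusted p = 0.0069).

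**Figure D2:**
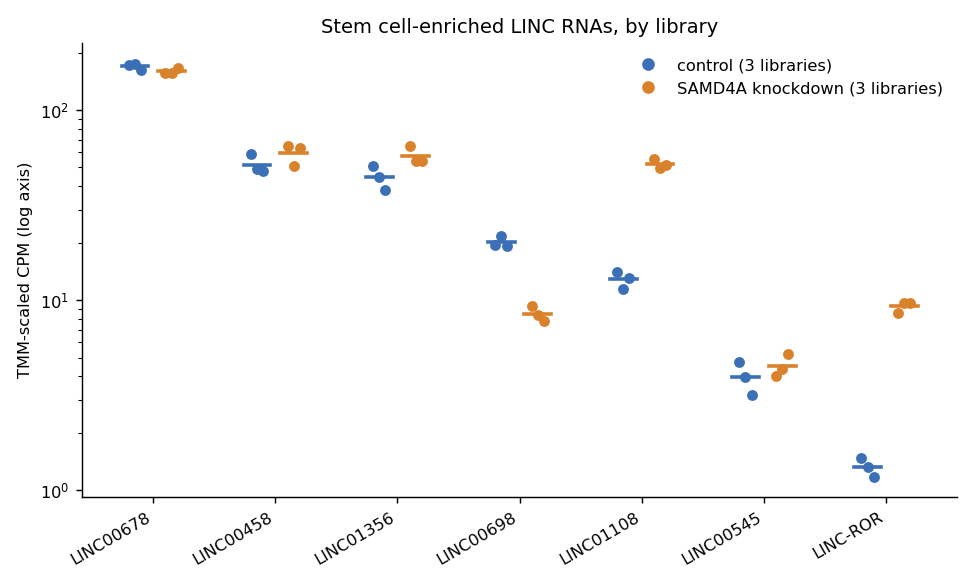
Levels of the 7 stem cell-enriched LINC RNAs in TMM-scaled CPM (log axis), with 1 point per library and a bar at the mean of each group of 3. LINC-ROR and LINC01108 are separated upward, LINC01356 also but by a narrow gap, and LINC00698 downward, while LINC00678, LINC00458 and LINC00545 overlap.

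The other members with the largest rises were mostly rare. LINC02334 (chromosome 13) was at 0.28, 0.20 and 0.047 CPM in control and 0.75, 1.07 and 0.97 CPM in knockdown (log2 fold change 2.36), from 1 to 6 counts per control library, so the size of the difference is uncertain. LINC02884 was at 0.35 CPM in control and 1.30 CPM in knockdown (1.87). Like LINC02334, it reached the level threshold through knockdown alone. LINC01844 rose by 1.55 ± 0.41 (edgeR adjusted p = 0.0051). LINC02582 was at 1.76, 1.82 and 1.94 CPM in control and 2.64, 6.96 and 5.34 CPM in knockdown. It rose by 1.43 ± 0.30 (edgeR adjusted p = 8.7e-04), with knockdown replicate 1 nearest to control. LINC01963, the next most abundant after LINC01108 among called rises of at least 2 fold, was at 3.18, 3.24 and 4.11 CPM in control and 8.65, 9.05 and 8.79 CPM in knockdown, with no overlap. It rose by 1.33 ± 0.16 (edgeR adjusted p = 5.6e-06), and XRCC5, a DNA end-joining gene 10742 bases from it, rose by 0.34 (edgeR adjusted p = 7.6e-06). LINC02335 (1.31, groups overlapping), LINC01238 (1.21, a member through knockdown alone, with 0.37 CPM in control and 0.86 CPM in knockdown), LINC01780 (1.19), LINC00106 (1.18) and LINC02570 (0.71) complete the 12 largest rises. The call of LINC02335 was lost without any single library other than knockdown replicate 1 (edgeR adjusted p up to 0.15), with the replicate block (edgeR adjusted p = 0.068), with limma-voom (limma adjusted p = 0.15) and when only totals set the scale (edgeR adjusted p = 0.055). That of LINC01780 was lost without control replicate 1 or 3 or knockdown replicate 2 (edgeR adjusted p up to 0.15). Called rises below that size included LINC00665, at 116, 116 and 118 CPM in control and 125, 139 and 132 CPM in knockdown (0.18 ± 0.05, edgeR adjusted p = 0.010), which lost its call when only totals set the scale (0.019, edgeR adjusted p = 0.79).

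Among the falls, LINC01152 on chromosome 17 changed most. It lies 79710 bases from SOX9, a transcription factor gene of cartilage, neural crest and endoderm progenitors, and shares exon bases with ROCR and SOX9-AS1. LINC01152 was at 5.79, 5.70 and 6.003 CPM in control and 0.75, 0.61 and 0.65 CPM in knockdown. The groups were far apart, and it fell by 3.11 ± 0.23 (edgeR adjusted p = 3.7e-08). SOX9 fell by 0.95 ± 0.12 from 25.8 to 13.4 CPM (edgeR adjusted p = 6.9e-06) and SOX9-AS1 by 2.20 ± 0.40 from 1.60 to 0.35 CPM (edgeR adjusted p = 2.9e-04), and reads of the overlapping RNAs cannot be fully told apart. LINC02428 was at 3.70, 6.05 and 3.88 CPM in control and 1.34, 0.71 and 1.02 CPM in knockdown (-2.14 ± 0.29, edgeR adjusted p = 2.0e-05). LINC01967 (-2.01) shares exon bases with LINC01980. LINC00963 was at 8.50, 6.34 and 5.67 CPM in control and 2.69, 1.27 and 1.67 CPM in knockdown (-1.86 ± 0.25, edgeR adjusted p = 1.9e-05). LINC02328 fell by 1.82 ± 0.33 (edgeR adjusted p = 3.0e-04). The others of the 12 largest falls reached the level threshold through control alone. LINC01473 was at 1.87 CPM in control and 0.28 CPM in knockdown (log2 fold change -2.74), and LINC00402 at 1.41 and 0.24 CPM (-2.52). LINC01612 (-2.31), LINC01096 (-2.24), LINC02820 (-1.98), LINC00900 (-1.96) and LINC02572 (-1.95) complete them. LINC01612 had 0 counts in knockdown replicate 2.

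Of the 23 members at 10 CPM or more, 11 were lower, among them LINC02700 and LINC00662, which are also among the 8 highest per kb. LINC02700 (chromosome 11, 94638045 to 94652884) was at 79.8, 81.4 and 81.7 CPM in control and 44.5, 39.3 and 34.0 CPM in knockdown, and fell by 1.04 ± 0.08 (edgeR adjusted p = 5.2e-08). Its nearest coding gene is PIWIL4, of the piRNA pathway, which did not pass (-0.66, edgeR adjusted p = 0.12). LINC00662, at 27.0 CPM per kb, was at 58.7, 66.0 and 63.9 CPM in control and 32.5, 35.4 and 34.9 CPM in knockdown, and fell by 0.87 ± 0.07 (edgeR adjusted p = 8.7e-08). LINC01315 and LINC00667, also among the 8 highest per kb, did not pass (0.29, edgeR adjusted p = 0.097; -0.11, edgeR adjusted p = 0.33). LINC01315 was called higher without knockdown replicate 1 (0.42, edgeR adjusted p = 0.0028), and LINC00667 was called lower when only totals set the scale (-0.27, edgeR adjusted p = 0.024). The highest 8 per kb were LINC00678 (211 CPM per kb), LINC00665 (127), LINC00458 (52.5), LINC01356 (28.0), LINC00662 (27.0), LINC01315 (24.0), LINC02700 (21.8) and LINC00667 (16.8).

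Of 4 RNAs known from neural cells that have a row, 1 fell, 1 did not pass and 2 were not tested. LINC00632, the host of the circular RNA CDR1as of neurons, was at 15.4, 13.7 and 16.7 CPM in control and 11.2, 10.1 and 12.025 CPM in knockdown, and fell by 0.46 ± 0.12 (edgeR adjusted p = 0.0035). LINC01122 did not pass, at 1.28 to 1.72 CPM in control and 1.09, 1.63 and 2.97 CPM in knockdown (0.31, edgeR adjusted p = 0.48). The neural RNAs LINC00461 and LINC01551 and the endoderm RNA LINC00261 were below the level threshold and not tested, with at most 0.38, 0.43 and 0.60 CPM in any library. LINC00599 has no row under that symbol. Of the p53-linked RNAs, LINC-PINT, just under the threshold, was at 0.095 to 0.71 CPM in control and 0.099 to 0.86 CPM in knockdown (0.16, edgeR adjusted p = 0.86), and PURPL, formerly LINC01021, was at 9.98 to 13.2 CPM in control and 16.3, 9.91 and 8.20 CPM in knockdown (-0.021, edgeR adjusted p = 0.94).

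Within the knockdown group, a few members followed the split of the neural markers. LINC01833 (chromosome 2), 2503 bases from the forebrain gene SIX3, was at 3.85, 2.56 and 1.99 CPM in the 3 control libraries. Knockdown replicate 1 had 3.08 CPM, but replicates 2 and 3 had 0.20 and 0.22 CPM. SIX3 was at 4.80, 5.26 and 5.01 CPM in the control libraries and at 6.96, 0 and 0.054 CPM in knockdown replicates 1 to 3, the same split. LINC01833 did not pass with all libraries (-1.23 ± 0.62, edgeR adjusted p = 0.11). Without knockdown replicate 1 its value was -3.70. It was named for its spread within the knockdown group, so leaving out the library that differs carries no test. With all libraries it was called with limma-voom (-2.26, limma adjusted p = 0.0068) and without a low-count filter (-1.23, edgeR adjusted p = 1.6e-04). The replicate block also called it (-1.75, edgeR adjusted p = 0.018). The other settings with all libraries did not call LINC01833. These were the DESeq2 test (-1.25, DESeq2 adjusted p = 0.41) and the other factors and filter (edgeR adjusted p = 0.074 to 0.11). LINC00638, chosen after its values were seen, was at 0.85 to 1.04 CPM in control libraries, with 0.90, 0.10 and 0.16 CPM in knockdown replicates 1 to 3. In the other direction, LINC02335 was at 0.61 to 0.81 CPM in control libraries, with 0.50, 2.59 and 2.43 CPM in knockdown replicates 1 to 3, and LINC01844 was at 0.43 to 0.90 CPM in control libraries, with 0.99, 2.79 and 2.16 CPM in the knockdown ones. In all, knockdown replicate 1 was at least 2 fold above the mean of the other knockdown libraries for 6 of the 220 members and 2 fold or more below it for 11, after adding 0.1 CPM. The share of all genes that far apart was not computed and most members are rare, so these counts are a description only. LINC02043 and LINC00886, at 0.55 and 0.35 CPM in that library and 1.27 to 2.32 CPM in the other knockdown libraries, did not pass (0.13 and -0.075, edgeR adjusted p = 0.81 and 0.89). LINC00899 was lower (-0.85, edgeR adjusted p = 0.043), a call lost without any single control replicate or without knockdown replicate 2 (edgeR adjusted p up to 0.19) and with DESeq2 (DESeq2 adjusted p = 0.052).

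**Figure D3:**
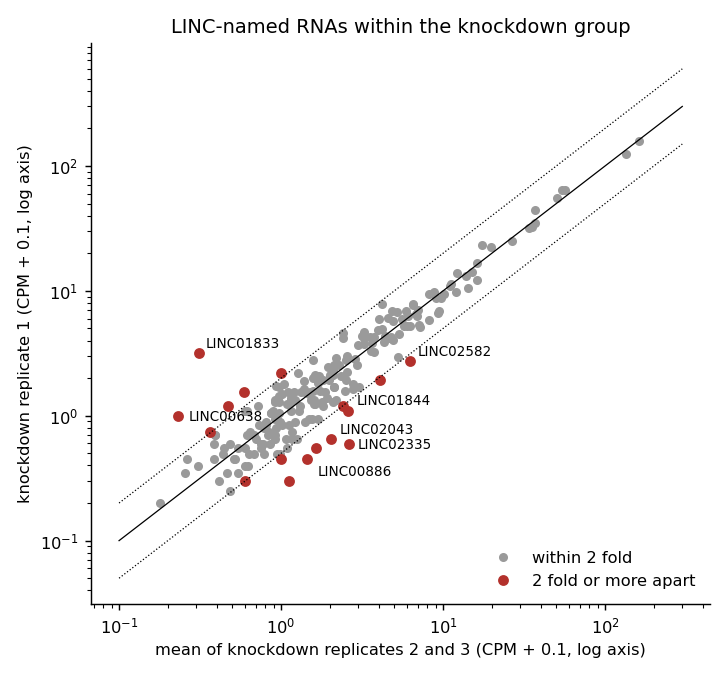
Level of each of the 220 members in knockdown replicate 1 against the mean of knockdown replicates 2 and 3 (CPM plus 0.1, both axes log), with the line of equality and dotted lines at 2 fold. LINC01833 lies farthest above the line and LINC02335 farthest below it.

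The coding genes next to the members were called about as often as coding genes in general. Members had 215 different nearest coding genes, of which 176 were tested, with 47 higher (26.7%) and 49 lower (27.8%), beside 28.8% and 27.1% of all coding genes tested. When only totals set the scale, 35 (19.9%) were higher and 77 (43.8%) lower, beside 17.2% and 39.7% of all coding genes. In 39 pairs both the member and its neighbour were called, in the same direction in 27 and in opposite directions in 12. Of the 88 called members 71 were lower, and the count expected from the directions alone was not computed. The 27 are therefore a description and do not show that members moved with their neighbours. Members that reached the level threshold through 1 group alone are among these pairs. The counts by direction were 21 pairs with both lower, 6 with both higher, 10 with a lower member beside a higher neighbour and 2 the other way round, and some neighbours count for more than 1 member.

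Of the pairs that fell together, a few are given as examples. CEBPB, a transcription factor of stress and inflammation, fell by 1.44 ± 0.07 from 126 to 46.6 CPM (edgeR adjusted p = 6.7e-10), and LINC01273 and LINC01270, which lie 14154 and 100041 bases from it on chromosome 20, both fell by 1.24 (edgeR adjusted p = 0.010 and 1.9e-04). LINC01096, a member through control alone that carries no test here, lies 1567 bases from NKX3-2. NKX3-2, a homeobox gene of skeletal development, fell by 0.93 (edgeR adjusted p = 0.010). LINC01415 fell by 1.60 and its neighbour TCF4, a helix-loop-helix factor gene, by 0.53 (edgeR adjusted p = 6.6e-05 and 3.1e-06). LINC01748 fell by 1.12 and NFIA, a gene of glial development, by 0.82 (edgeR adjusted p = 0.0039 and 0.023). LINC02253 fell by 1.15, and ARRDC4, an arrestin-domain gene 528609 bases away, by 2.46 (edgeR adjusted p = 0.0021 and 8.9e-11). Opposite moves included LINC01234, which fell by 1.35 from 7.78 to 3.03 CPM (edgeR adjusted p = 1.8e-04), beside RBM19, a ribosome assembly gene, which rose by 1.20 from 56.6 to 130 CPM (edgeR adjusted p = 8.0e-10). LINC00667 shares its locus with ZBTB14, which fell by 1.07 (edgeR adjusted p = 2.9e-07) while LINC00667 did not pass. These pairs were named after their values were seen, apart from those of members named by rule.

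**Figure D4:**
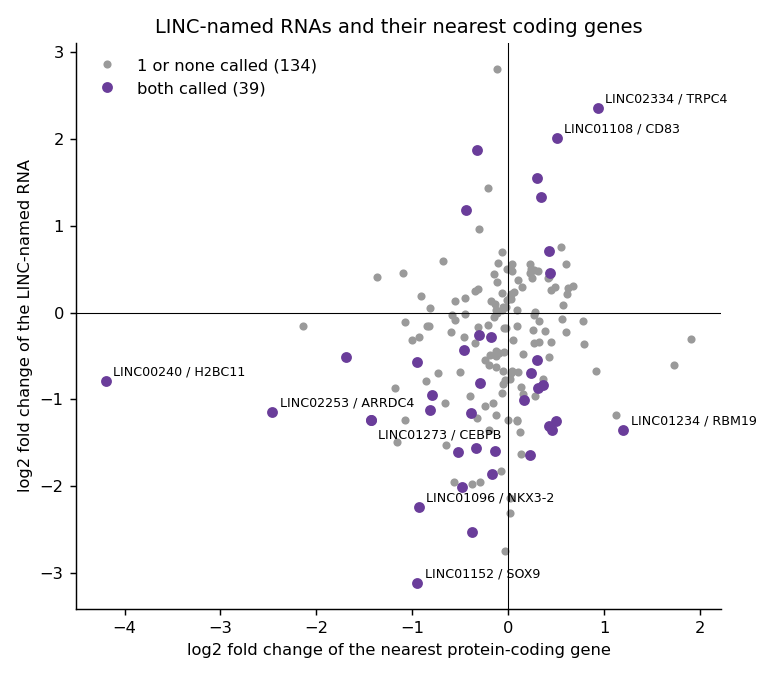
Log2 fold change of each tested member against that of its nearest protein-coding gene, for the 173 pairs with both tested. The 39 pairs with both called are drawn in purple, 27 of them in the lower left or upper right, where both moved the same way. Most called members were lower, and the count expected from the directions alone was not computed.

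Many members do not stand alone in the genome, which limits what their counts mean. By the deposited coordinates, 88 of the 220 overlapped no other gene, and 119 overlapped a gene on the opposite strand. In GENCODE 29, 68 of 219 shared exon bases with another gene, 54 of them with one on the opposite strand. The library kit keeps strand, but the strand setting of the counting was not given in the sources used here, nor was the handling of reads that align to more than 1 locus. Among the 82 tested members that overlapped nothing, 24 were lower (29.3%) and 8 higher (9.76%). Over all tested members the shares were 33.5% lower and 8.02% higher, and over all genes tested 25.6% and 26.1%. The share lower lay between those of all members and all genes, while the share higher stayed near that of all members.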

How the data were processed

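Poly-A RNA of H7 cells was measured in 3 control and 3 SAMD4A knockdown samples. The authors deposited raw counts per gene, made with HISAT2 and HTSeq on GRCh38 per the submitters' processing notes; versions, options and strandedness were not given in the sources used here. Totals were 19270688 to 21355171 counts, and replicate libraries differed by more than sampling noise (chi-square per degree of freedom 2.78 to 7.85 within groups). Exon length, another deposited column, was used for CPM per kb.

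Counts were filtered with filterByExpr (17258 genes), scaled with TMM and tested two-sided with the edgeR 4.0.16 quasi-likelihood test in R 4.3.3, with Benjamini-Hochberg adjustment over all genes and a threshold of 0.05. SE is the log2 fold change over the root of F. The test was tried on simulated counts. Alternatives used DESeq2 1.42.0, limma 3.58.1, other factors and filters, a replicate block, other memberships and each library left out. Named genes were SAMD4A, the fixed lists, the 12 largest called rises and falls, the 8 highest per kb and the 8 with the widest spread in knockdown. Members and lists were chosen with earlier results of these data known. The hairpin and motif searches, in GENCODE 29 transcripts and RefSeq promoters (GRCh38.p14), were added after seeing the data. A sequence comparison among members is not reported here.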

Additional observations from a re-analysis of the deposited data

How the results depend on the processing

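The counts of 17 members higher and 71 lower stayed within 1.5 times under every other scaling, filter and test run. They ran from 13 to 20 higher and 62 to 92 lower. The extremes were total counts only (13 and 92), no low-count filter (20) and DESeq2 (62 lower). The background moved as well: with total counts only 39.7% of coding genes tested were lower and 17.2% higher, beside 27.1% and 28.8% with TMM. The 92 lower and 13 higher of 212 members are to be read beside those shares. Leaving out 1 library gave 15 to 24 higher and 57 to 74 lower, with the most in both directions without knockdown replicate 1. Keeping only members that overlap no other gene left 8 higher and 24 lower of the 82 tested. Of the neighbours, 77 instead of 49 were lower with total counts only, and leaving out 1 library gave 46 to 50 higher and 43 to 60 lower. Among the named members the direction turned for LINC02043 with total counts only (-0.026) and limma-voom (-0.084), and leaving out 1 library gave it -0.35 to 0.53, negative without control replicate 3 (-0.019) or knockdown replicate 3. LINC00886 ran from -0.38 to 0.34, positive without knockdown replicate 1, and LINC01122 from -0.15 to 0.59, negative without knockdown replicate 3. None of these values was called, and the cause was not tested. No sign of pairing by replicate number was seen, with deviations of same-numbered libraries correlating at -0.05 to 0. That cannot show whether same-numbered libraries were made together. With the replicate block 16 members were higher and 64 lower. Depth limits what can be called under 1 CPM. There 14 of 51 tested members were called, 7.84% higher and 19.6% lower, beside 7.26% and 13.4% of all genes at that level. Members that entered through 1 group alone are among the 14, so these shares are a description only.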

Other observations

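LINC-named RNAs in the histone gene cluster of chromosome 6 were lower, and so were many histone genes around them: of 24 tested between 26 and 28.5 Mb, 15 were lower, none was higher and 9 were not called, beside 25.6% lower among all genes. LINC01012 was at 8.36, 6.24 and 6.76 CPM in control and 3.58, 3.05 and 2.75 CPM in knockdown, and fell by 1.18 ± 0.18 (edgeR adjusted p = 6.6e-05). Its nearest coding gene, H2BC13, did not pass and leaned the other way, with 0.29 CPM in control and 0.64 CPM in knockdown (1.13, edgeR adjusted p = 0.12). LINC00240 fell by 0.79 ± 0.31 (edgeR adjusted p = 0.041). Its nearest coding gene, H2BC11, fell by 4.20 ± 0.14 from 72.4 to 3.94 CPM (edgeR adjusted p = 1.0e-11). Replication-dependent histone messages mostly lack a poly-A tail and are poorly sampled by poly-A libraries. All of these were chosen after their values were seen.

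The 8 members that the low-count filter removed were LINC00629, LINC01134, LINC01137, LINC01838, LINC01936, LINC02449, LINC02473 and LINC02714. LINC00629 was at 0.43, 1.03 and 1.23 CPM in control and 0.099, 0.051 and 0.11 CPM in knockdown. LINC02473 was at 0.33, 0.20 and 0.14 CPM in control and 0.45, 1.58 and 1.51 CPM in knockdown, and LINC02714 at 0.38, 0.34 and 0.14 CPM in control and 1.44, 0.66 and 0.32 CPM in knockdown.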
